A study of Mus musculus with 12 samples.

Results

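Sugar digestion and absorption were followed through 9 genes: Lct, Sis, Mgam, Treh, Slc5a1, Slc2a2, Slc2a5, Khk and G6pc. They were taken by gene symbol, as the mouse annotation GENCODE M21 gives it, from a table of 53715 genes, in which all 9 have a line. RNA came from ileal and colonic mucosa of C57BL/6J mice, which were 8-week-old males, and each tissue and genotype has 3 libraries, 12 in all. Control mice carry the floxed Slc39a8 allele on both chromosomes (Slc39a8-fl/fl) and no Cre by their labels, while their sample titles read WT. The study's methods, however, also count mice heterozygous for the floxed allele, wild-type mice and mice with Villin-Cre alone among its controls. KO mice carry the same floxed alleles with Villin-Cre (Slc39a8-fl/fl:Villin-Cre), in which the Villin promoter drives Cre in the intestinal epithelium, so that other mucosal cells keep Slc39a8. The labels do not say whether an ileal and a colonic library came from the same mouse, and p-values measure the spread between these libraries.

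Dietary starch and disaccharides are cut to monosaccharides by enzymes anchored in the brush border of enterocytes. Lct encodes lactase, which splits milk sugar and falls after weaning, Sis encodes sucrase-isomaltase, Mgam maltase-glucoamylase and Treh trehalase. Glucose and galactose then enter the cell with sodium through SGLT1, the product of Slc5a1, and fructose enters through GLUT5, the product of Slc2a5. Slc2a2 encodes GLUT2, the transporter through which hexoses leave across the basolateral membrane. Khk encodes ketohexokinase, which phosphorylates fructose, and G6pc encodes the glucose-6-phosphatase that frees glucose from its phosphate. The small intestine is the usual site of this system, while the colon receives little free sugar.

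All 9 genes are protein-coding, and their coordinates are given on GRCm38 (mm10). Lct (ENSMUSG00000026354.8) lies at chr1:128284756-128328318, Sis (ENSMUSG00000027790.14) at chr3:72888557-72967863, Mgam (ENSMUSG00000068587.9) at chr6:40628831-40769123 and Treh (ENSMUSG00000032098.13) at chr9:44673233-44686305. Slc5a1 (ENSMUSG00000011034.6) lies at chr5:33104219-33162870, Slc2a2 (ENSMUSG00000027690.13) at chr3:28697903-28731359 and Slc2a5 (ENSMUSG00000028976.10) at chr4:150119283-150144169. Khk (ENSMUSG00000029162.15) lies at chr5:30921431-30931248 and G6pc (ENSMUSG00000078650.2) at chr11:101367561-101377903. Lct and Sis are on the minus strand and the other 7 on the plus strand. No member shared a stretch of 75 bases with a transcript of another gene, except Treh, which shared 6 of its 2190 such stretches with the gene model Gm47238. Of exon bases, only 2 of Treh's 2048 overlapped another gene, Phldb1 on the opposite strand.

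The 250 bases before the RefSeq start of 4 members are shown because these genes stand at the ends of the expression pattern described below: Sis had the highest ileal level, Slc2a2 and G6pc had 0 to 4 counts in every colonic library, and Lct was near 0 in both tissues. Capitals mark TTTATG, letters of sites bound by CDX factors, and TATAAA, the letters of the TATA box, or their reverse complements CATAAA and TTTATA, and in Sis matches of TATAAA on both strands overlap. The sequences are from RefSeq on GRCm38.p6, read 5′ to 3′ along the gene. Their positions are chr3:72967864-72968113 (minus strand) for Sis, chr3:28697653-28697902 (plus) for Slc2a2, chr11:101367466-101367715 (plus) for G6pc and chr1:128328319-128328568 (minus) for Lct.
Sis: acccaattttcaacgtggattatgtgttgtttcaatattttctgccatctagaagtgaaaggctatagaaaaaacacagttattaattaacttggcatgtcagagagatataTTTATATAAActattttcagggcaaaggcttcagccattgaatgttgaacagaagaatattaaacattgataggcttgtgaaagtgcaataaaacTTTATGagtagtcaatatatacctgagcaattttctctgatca
Slc2a2: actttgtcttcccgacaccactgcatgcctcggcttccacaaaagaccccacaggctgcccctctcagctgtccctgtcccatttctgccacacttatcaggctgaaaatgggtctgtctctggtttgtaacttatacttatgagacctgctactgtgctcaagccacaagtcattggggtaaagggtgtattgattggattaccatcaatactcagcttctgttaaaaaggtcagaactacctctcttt
G6pc: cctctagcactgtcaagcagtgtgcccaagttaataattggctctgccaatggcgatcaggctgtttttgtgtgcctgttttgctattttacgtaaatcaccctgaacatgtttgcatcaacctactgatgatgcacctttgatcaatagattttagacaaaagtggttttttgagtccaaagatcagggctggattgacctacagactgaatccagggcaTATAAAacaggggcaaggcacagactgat
Lct: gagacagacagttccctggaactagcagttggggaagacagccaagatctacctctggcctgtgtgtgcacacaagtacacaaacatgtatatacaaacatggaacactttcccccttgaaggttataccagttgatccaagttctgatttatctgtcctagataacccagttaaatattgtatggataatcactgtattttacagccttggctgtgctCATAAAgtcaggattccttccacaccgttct

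Promoters of all 9 members were present in the RefSeq table and were searched on both strands for 4 short motifs. The CDX letters TTTATG were in the promoters of Lct and Sis, and in 10.8% of the 32851 mouse promoters. The GATA letters AGATAA were in Lct and Mgam (9.99% of all promoters), and the E-box CACGTG, the letters of sites for carbohydrate response factors among others, was in Mgam, Slc5a1 and Khk (6.02%). TATAAA was in Sis, Mgam and G6pc (12.4%), and in Mgam and G6pc it began 30 and 29 bases before the start. The printed promoter of Slc2a2 held none of the 4 motifs, which says only that these letters are not in this window. GC content ran from 31.6% in Sis to 66.4% in Slc2a5 and 67.2% in Khk, beside a median of 52.4% over all promoters. These matches are descriptions of the sequence and not sites of binding.

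The libraries held between 16749138 and 27903083 expected counts, estimates of reads per gene that the authors deposited without normalization. Levels are given as CPM, counts per 1000000 counts of the library, with library sizes scaled by edgeR's TMM factors. Slc39a8 was at 6.73 ± 1.59 CPM (SD, n = 3) in control ileum and 3.26 ± 0.95 CPM in KO ileum, and at 20.5 ± 0.39 and 8.93 ± 2.25 CPM in control and KO colon, and the genotypes did not overlap in either tissue. Epithelial markers were present in every library, and 7 of 7 markers of small intestinal enterocytes were lower in colon. In 2 of the 6 ileal libraries, control replicate 3 and KO replicate 1, 8 smooth muscle genes summed to 28.6 to 44.1 CPM, against 1890 to 2744 CPM in the other 4 and 2633 to 4099 CPM in colon. Ileal KO replicate 2 carried more of some transcripts of colonic epithelium than the other ileal libraries. Car1 was at 2632 CPM, against 3.4 to 144 CPM in the other ileal libraries and 14884 to 27124 CPM in colon. Aqp8 was at 67.3 CPM, against at most 0.36 CPM in the other ileal libraries. Slc26a3 was at 266 CPM, against 139 to 207 CPM there and 374 to 689 CPM in colon. Car4, at 129 CPM, lay within the 84.6 to 436 CPM of the other ileal libraries. Ly6g had at most 0.17 CPM in every ileal library.

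**Figure D1:**
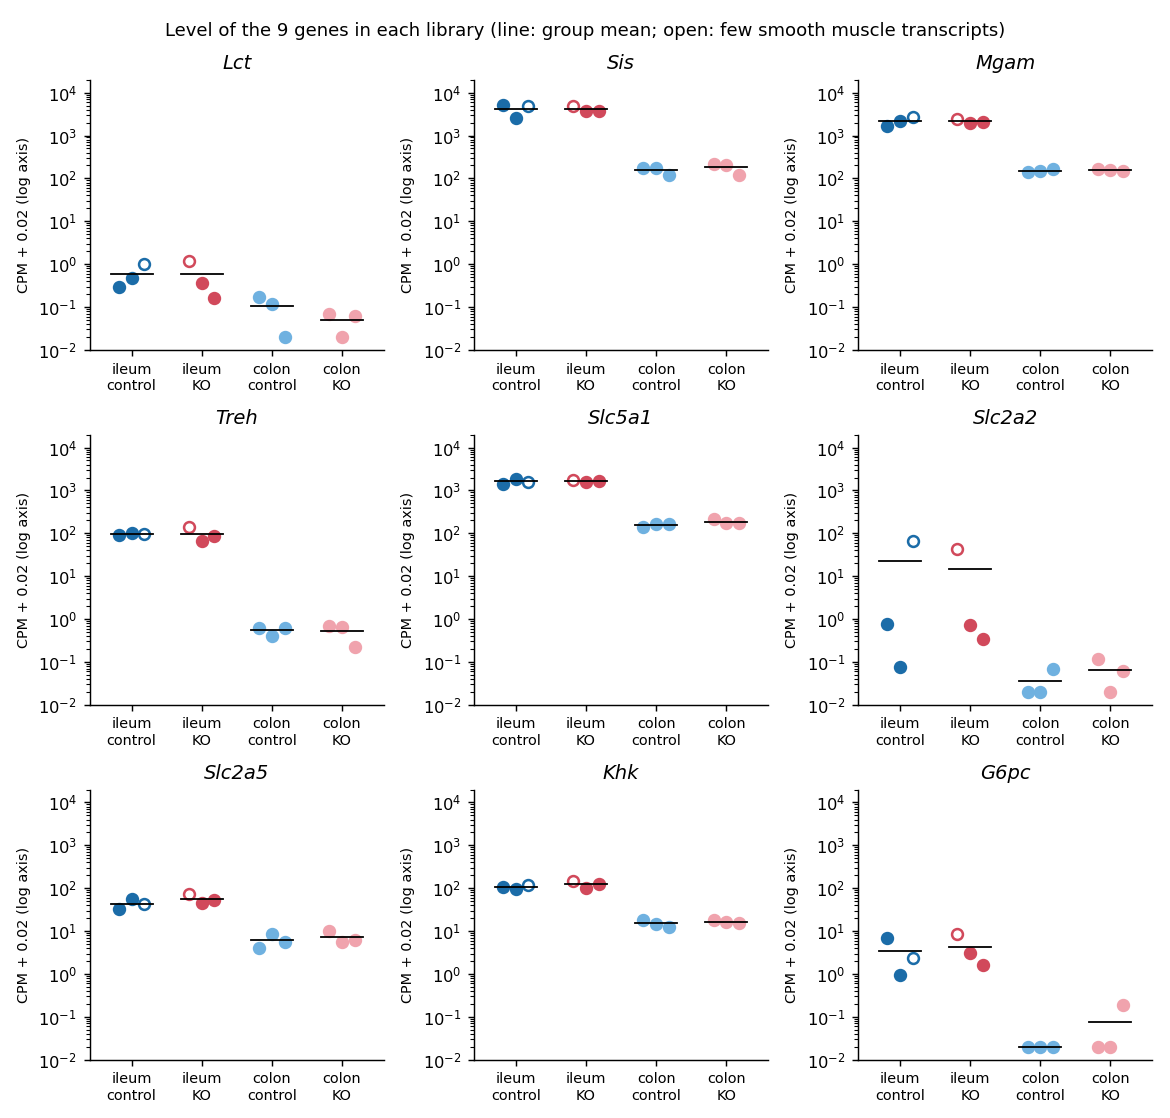
Level of each gene in every library, as CPM plus 0.02 on a log axis with the same scale in all panels. Points are libraries, lines are group means of 3 libraries, and open points are the 2 ileal libraries with few smooth muscle transcripts. Every gene but Slc2a2 was lower in all colonic libraries than in all ileal libraries of the same genotype under both scalings, and in control mice the highest colonic and lowest ileal library of Slc2a2 hold 1 count each. Slc2a2, and by a smaller margin Mgam and Lct, lay higher at both open points than in the other ileal libraries.

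Sucrase-isomaltase was the most abundant of the 9 transcripts in ileum. To compare genes, levels were divided by the length of the gene's exons and are given as CPM per kilobase. In control ileum Sis was at 550 ± 182 CPM per kilobase (SD, n = 3), Slc5a1 at 395 ± 58.3, Mgam at 253 ± 60.5, Khk at 59.8 ± 6.81, Treh at 47.0 ± 1.81 and Slc2a5 at 12.8 ± 3.37. Slc2a2 followed at 3.90 ± 6.64, G6pc at 1.39 ± 1.25 and Lct at 0.088 ± 0.058 CPM per kilobase. Neighbours in this order overlapped between libraries for Sis and Slc5a1, for Slc2a5 and Slc2a2 and for Slc2a2 and G6pc, and did not for the other pairs. The order of the means was the same in KO ileum, where Sis stood at 542 ± 82.2 and Slc5a1 at 409 ± 22.2 CPM per kilobase without overlap, while Khk and Treh overlapped. The place of Slc2a2 rested on the 2 ileal libraries with few smooth muscle transcripts. Without them, in an alternative chosen after seeing the data, it stood at 0.068 CPM per kilobase in control and 0.090 in KO ileum (means of 2 libraries), below G6pc at 1.59 and 0.95 and next to Lct at 0.055 and 0.039, and the order of the other genes was the same.

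In colon the glucose transporter Slc5a1 had the highest level of the 9. In control colon it was at 38.5 ± 3.16 CPM per kilobase, above Sis at 21.1 ± 4.17 and Mgam at 17.5 ± 1.02, which overlapped each other. Khk was at 8.36 ± 1.48, Slc2a5 at 1.81 ± 0.68, Treh at 0.26 ± 0.065 and Lct at 0.013 ± 0.012 CPM per kilobase. In KO colon the 6 highest genes stood in the same order, with Slc5a1 at 45.4 ± 5.86 and Sis at 24.3 ± 6.76 CPM per kilobase. In both genotypes Sis thus stood first in ileum and Slc5a1 in colon.

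How the sugar genes divide between the 2 tissues was asked by comparing colon with ileum within each genotype, with edgeR's quasi-likelihood test and Benjamini-Hochberg adjustment over the 16558 genes that passed a filter on low counts. Of the 9 genes, 8 passed the filter and Lct did not. Slc2a2 and G6pc passed through their ileal counts alone, so that they could only differ in this direction. All 8 were lower in colon in control and in KO mice at an adjusted p under 0.1, the threshold of the study, and 19.6% of all tested genes were called lower in control mice and 20.0% in KO mice. Of the 9 genes, all but Slc2a2 lay lower in all 3 colonic than in all 3 ileal libraries in both genotypes, whether scaled by TMM or by library size alone, as did 20.4% of all tested genes in control and 24.9% in KO mice with TMM. For Slc2a2 this held in KO mice, and in control mice its order rested on 1 count against 1 count. The median log2 fold change of the 6 members with colonic counts in every library was −3.60 in control and −3.47 in KO mice, beside 0.02 and 0.01 over all tested genes. In bulk mucosa, fewer enterocytes in a sample and less RNA per enterocyte cannot be told apart.

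The brush border disaccharidases fell most steeply among the genes with colonic counts in every library. Sis was at 5026, 2544 and 4756 CPM in the control ileal libraries (replicates 1 to 3) and at 174, 177 and 122 CPM in the control colonic ones. In KO mice it was at 4755, 3720 and 3667 CPM in ileum and at 215, 206 and 123 CPM in colon. The colonic libraries lay far below every ileal library, at 3.84% of the ileal mean in control and 4.48% in KO mice, and the log2 fold change was −4.70 (SE 0.34, adjusted p = 2.03e-06) in control and −4.48 (SE 0.34, adjusted p = 2.78e-06) in KO mice.

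Mgam was at 1667, 2206 and 2720 CPM in control ileum and at 145, 151 and 162 CPM in control colon. The KO libraries held 2448, 1958 and 2028 CPM in ileum and 169, 155 and 148 CPM in colon. Its colonic level was the steadiest of the tested members, with 1.17 times between the lowest and the highest of the 6 colonic libraries. The log2 fold change, colon over ileum, was −3.85 (SE 0.20, adjusted p = 2.78e-07) in control and −3.77 (SE 0.20, adjusted p = 3.13e-07) in KO mice.

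Treh separated the tissues more sharply than the other disaccharidases. It was at 93.3, 100 and 94.9 CPM in control ileum and at 0.61, 0.38 and 0.61 CPM in control colon. KO libraries held 142, 65.6 and 84.7 CPM in ileum and 0.66, 0.62 and 0.21 CPM in colon. These colonic values came from 5 to 14 counts a library, and they were 0.56% of the ileal mean in control and 0.51% in KO mice. The log2 fold change was −7.47 (SE 0.40, adjusted p = 2.89e-07) in control and −7.63 (SE 0.40, adjusted p = 2.74e-07) in KO mice.

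Lactase transcripts were scarce in every library. Lct had 4, 8 and 23 counts in the control ileal libraries, 20, 9 and 3 in the KO ileal ones, 3, 2 and 0 in control colon and 1, 0 and 1 in KO colon. The highest counts were in the 2 ileal libraries with few smooth muscle transcripts, at 0.98 and 1.19 CPM, against 0.14 to 0.44 CPM in the other 4. With no filter beyond 1 count, edgeR gave Lct a log2 fold change of −2.73 (SE 0.99, adjusted p = 0.081) for colon over ileum in control mice and −3.89 (SE 1.13, adjusted p = 0.027) in KO mice, over 28017 genes. Neither passed the threshold without both of these libraries, at −2.03 (SE 1.18, adjusted p = 0.25) in control and −2.80 (SE 1.32, adjusted p = 0.12) in KO mice.

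The transporters of the apical membrane kept a larger part of their level in colon. Slc5a1 was at 1417, 1884 and 1557 CPM in control ileum and at 143, 165 and 166 CPM in control colon. In KO mice it was at 1755, 1578 and 1702 CPM in ileum and at 214, 173 and 171 CPM in colon. Its ileal level was the steadiest of the tested members, with 1.33 times between the lowest and the highest library. The colonic mean was 9.75% of the ileal mean in control and 11.1% in KO mice, with log2 fold changes of −3.36 (SE 0.17, adjusted p = 2.20e-07) and −3.17 (SE 0.17, adjusted p = 2.74e-07).

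The fructose transporter Slc2a5 and the fructose kinase Khk had almost the same colonic share. Slc2a5 was at 32.7, 55.5 and 41.9 CPM in control ileum and at 4.10, 8.68 and 5.70 CPM in control colon. The KO values were 72.6, 44.4 and 52.5 CPM in ileum and 10.1, 5.59 and 6.23 CPM in colon. No colonic library reached the lowest ileal one, and the log2 fold change was −2.82 (SE 0.33, adjusted p = 8.81e-05) in control and −2.95 (SE 0.33, adjusted p = 6.48e-05) in KO mice.

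Khk was at 105, 96.7 and 121 CPM in control ileum and at 17.8, 14.7 and 12.5 CPM in control colon. The KO values were 146, 99.0 and 123 CPM in ileum and 18.0, 16.3 and 15.1 CPM in colon. The fitted log2 fold change was −2.84 (SE 0.18, adjusted p = 8.19e-07) in control and −2.90 (SE 0.18, adjusted p = 7.59e-07) in KO mice. The colonic share of the ileal mean was 14.2% for Slc2a5 and 14.0% for Khk in control mice, and 12.9% and 13.4% in KO mice.

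**Figure D2:**
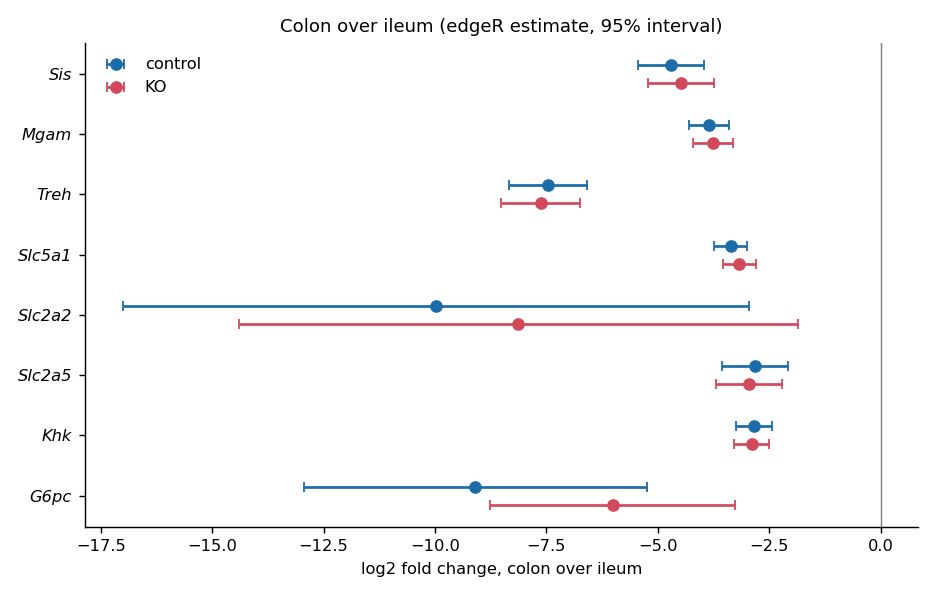
Log2 fold change of colon over ileum for the 8 tested genes (edgeR estimate with its 95% interval) in control and KO mice, 3 libraries a group. All estimates lie below 0, from −2.82 for Slc2a5 to −9.98 for Slc2a2 in control mice, and the intervals of Slc2a2 are the widest.

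G6pc and Slc2a2, the genes of glucose release and exit, were near absent from colon. G6pc had 101, 17 and 56 counts in the control ileal libraries (6.72, 0.94 and 2.38 CPM) and 140, 77 and 33 in the KO ileal ones (8.35, 3.01 and 1.56 CPM). It had 0 counts in the 3 control colonic libraries and 0, 0 and 4 in the KO ones. If up to 3 counts over the colonic control group are allowed for a count of 0, G6pc was at least 63.2-fold lower in control colon than in control ileum, a limit that covers counting error only. The limit was 36.1-fold without ileal control replicate 1, which held 101 of the 174 ileal counts, and 43.2-, 41.8- and 41.4-fold without colonic control replicates 1, 2 and 3. The adjusted p from edgeR was 0.0036 in control and 0.0054 in KO mice, for a gene that passed the filter through its ileal counts alone. The 4 counts in KO colon were all in replicate 3, and the fitted log2 fold change in KO mice moved from −6.01 to −9.45 without that library.

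Slc2a2 had 1 count over the 3 control colonic libraries and 3 over the KO ones, and its highest control colonic and lowest control ileal library held 1 count each, at 0.047 and 0.056 CPM with TMM and in the opposite order, at 0.051 and 0.048 CPM, by library size alone. In ileum it had 11, 1 and 1566 counts in the control libraries and 727, 18 and 7 in the KO ones. The ratio of summed counts, ileum over colon and scaled for library size, was 1719 (95% interval 308 to 67942) in control and 255 (87.0 to 1240) in KO mice, and these intervals cover counting error only. It was 22.4 (3.31 to 957) without ileal control replicate 3 and 11.5 (3.52 to 59.7) without ileal KO replicate 1. Without single other libraries it ran from 1138 to 2520 in control mice, or was at least 375 without colonic control replicate 3, which held the 1 count, and from 179 (without colonic KO replicate 2) to 514 (without colonic KO replicate 1) in KO mice. edgeR gave an adjusted p of 0.038 in control and 0.053 in KO mice, with a range over the alternatives of 0.012 to 0.40 and 0.010 to 0.43. Slc2a2 too passed the filter through its ileal counts alone.

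The call of Slc2a2 between tissues rested on single libraries. In control mice the adjusted p rose to 0.40 without ileal control replicate 3 and to 0.11, 0.12 and 0.13 without colonic control replicates 1, 2 and 3. In KO mice it rose to 0.42 without ileal KO replicate 1 and to 0.13, 0.15 and 0.14 without colonic KO replicates 1, 2 and 3. Without both ileal libraries with few smooth muscle transcripts, the log2 fold change was −4.13 (adjusted p = 0.036) in control and −3.33 (adjusted p = 0.032) in KO mice. limma-voom did not call Slc2a2 and DESeq2 gave it no adjusted p. The other 7 tested members stayed lower in colon at an adjusted p under 0.1 in every alternative that was run, though G6pc could only differ in this direction.

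Markers of the epithelium as a whole were lower in colon too, by less. All 8 were called lower, with a median log2 fold change of −1.03 in control mice. When libraries were scaled on these markers the 8 sugar genes were still called lower, though Slc2a2 and G6pc could only differ in this direction. With that scaling Slc5a1 was at −2.31 and Sis at −3.66 in control mice. That scaling moved the median of all tested genes to 1.06. Over the 8 epithelial markers, colonic levels in control mice ran from 25.8% of ileal levels for Vil1 to 66.8% for Krt8, with Epcam at 46.6%. Markers of small intestinal enterocytes fell into a wide range, from 0.034% for Apoa1, 0.098% for Anpep and 0.14% for Fabp6 to 8.15% for Alpi, 14.8% for Fabp2 and 34.2% for the bile acid transporter Slc10a2. Sis, Mgam, Slc5a1, Slc2a5 and Khk, at 3.84% to 14.2%, lay above Apoa1, Anpep and Fabp6 in this measure, and Treh, at 0.56%, lay nearer to them.

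**Figure D3:**
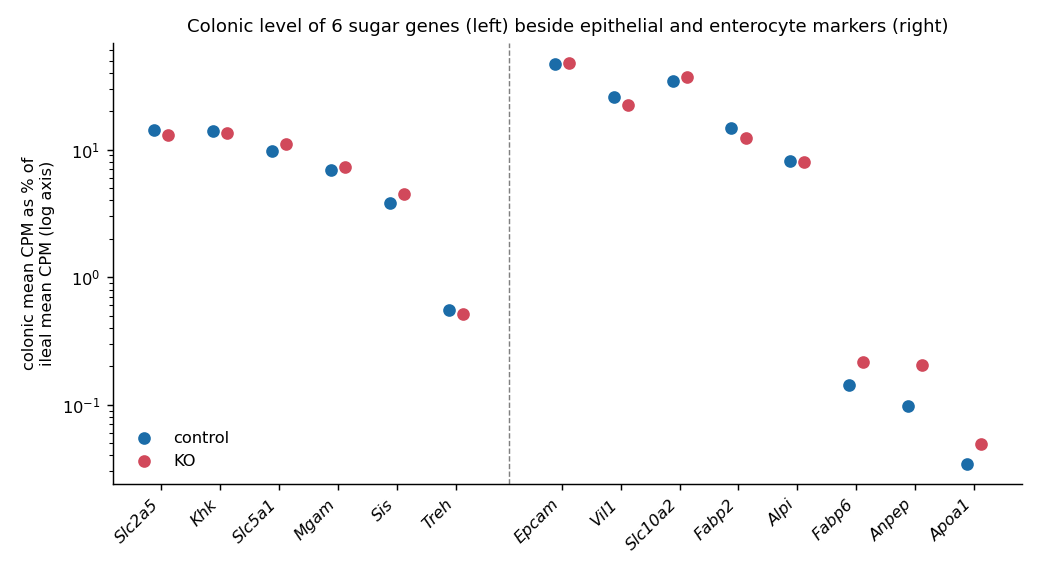
Mean colonic CPM as a percent of mean ileal CPM, on a log axis, in control and KO mice, each from 3 libraries a tissue. Left of the dashed line are the 6 sugar genes with colonic counts in every library. Right of it are the epithelial markers Epcam and Vil1 and enterocyte markers. Slc2a5, Khk, Slc5a1, Mgam and Sis lie between 3.84% and 14.2%, Treh at 0.51% to 0.56%, and Fabp6, Anpep and Apoa1 at or below 0.22%. Alpi, Fabp2 and Slc10a2 lie between 8.06% and 36.9%.

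Ileal KO replicate 2, the ileal library with high Car1 and Aqp8, was left out in turn. Without it, the log2 fold changes of colon over ileum in KO mice were −4.54 for Sis, −3.83 for Mgam and −7.85 for Treh. They were −3.22 for Slc5a1, −3.10 for Slc2a5 and −3.03 for Khk. Each was past the threshold, and each was further from 0 than with that library. Without both ileal libraries with few smooth muscle transcripts, the values in control mice were −4.61 for Sis, −3.69 for Mgam, −7.50 for Treh, −3.41 for Slc5a1, −2.86 for Slc2a5 and −2.77 for Khk, all past the threshold.

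The other genes of sugar handling did not all follow this pattern. Of 17 other hexose transporters, 15 were tested, and in control mice 5 were higher and 5 lower in colon, beside 16.2% and 19.6% of all tested genes. Slc2a1, which encodes the widespread glucose transporter GLUT1, was at 9.18, 13.4 and 16.5 CPM in control ileum and at 184, 165 and 197 CPM in control colon, a log2 fold change of 3.79 (SE 0.27, adjusted p = 1.56e-06). Slc2a6 (0.76 ± 0.59 to 14.5 ± 6.76 CPM, SD, n = 3) and Slc2a13, the myo-inositol transporter HMIT (9.15 ± 2.14 to 22.4 ± 1.52 CPM), were also higher in colon. Slc5a11, a sodium and myo-inositol cotransporter, fell from 18.6 ± 11.7 to 0.050 ± 0.051 CPM, Slc5a4a, a relative of SGLT1, from 13.0 ± 8.49 to 0.11 ± 0.024 CPM, and Slc2a7 from 2.95 ± 1.86 to 0.080 ± 0.053 CPM.

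All 17 enzymes that act on absorbed fructose, galactose and glucose were tested. In control colon 4 were higher and 7 lower, beside 16.2% and 19.6% of all tested genes. Tkfc, the triokinase that acts after Khk, fell with it, from 121 ± 34.6 CPM in ileum to 12.2 ± 2.15 CPM in colon (log2 fold change −3.31, SE 0.24, adjusted p = 2.39e-06). Sord, sorbitol dehydrogenase, fell from 221 ± 74.3 to 50.8 ± 3.49 CPM. Hexokinase Hk1 rose from 17.8 ± 3.14 to 90.4 ± 10.7 CPM, Ugp2 from 155 ± 35.2 to 395 ± 68.7 CPM and Gpi1 from 249 ± 40.2 to 501 ± 41.0 CPM.

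For the next 3 lists too, 16.2% of all tested genes were higher and 19.6% lower in control colon. Of 8 genes of gluconeogenesis and glucose release beside G6pc, 7 were tested, and 3 were lower and none higher in control colon. These were Fbp1 (6.93 ± 5.96 to 0.79 ± 0.21 CPM) and Fbp2 (194 ± 29.3 to 99.5 ± 7.32 CPM), fructose bisphosphatases, and Slc37a4 (45.3 ± 18.1 to 21.4 ± 0.88 CPM), which carries glucose-6-phosphate into the endoplasmic reticulum. Of 9 other glycosidases, 8 were tested, and Gba2, Gaa and Glb1 were higher and Ganab lower in control colon. Of 20 genes of sugar sensing and transcription factors, 19 were tested, 3 were higher and 7 lower. Gata5 fell from 90.6 ± 13.1 to 2.72 ± 0.88 CPM (adjusted p = 7.49e-07), Hnf4g from 224 ± 66.4 to 31.7 ± 11.6 CPM and Mlxipl, which encodes the carbohydrate response factor ChREBP, from 69.4 ± 20.1 to 19.0 ± 5.33 CPM. Txnip (503 ± 71.7 to 1038 ± 66.0 CPM) and Cdx1 (90.0 ± 32.1 to 136 ± 6.47 CPM) were higher in colon.

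Within ileum, the exit transporter Slc2a2 varied more than any other member. It was at 0.73, 0.056 and 66.5 CPM in the control libraries and at 43.3, 0.70 and 0.33 CPM in the KO libraries. The 2 high libraries are the ileal libraries with few smooth muscle transcripts. Control replicate 3 stood at 169 times the mean of the other control ileal libraries, and KO replicate 1 at 83.7 times that of the other KO ones. With 0.05 CPM added, the smaller of its ratios in the 2 genotypes was 76.5, the largest of all 16558 tested genes, of which 9 (0.0544%) had ratios of at least 10 in both genotypes and 478 (2.89%) of at least 2. Its standard deviation within genotype was 4.10 on the log2 CPM scale, beside a median of 0.37 over all tested genes.

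**Figure D4:**
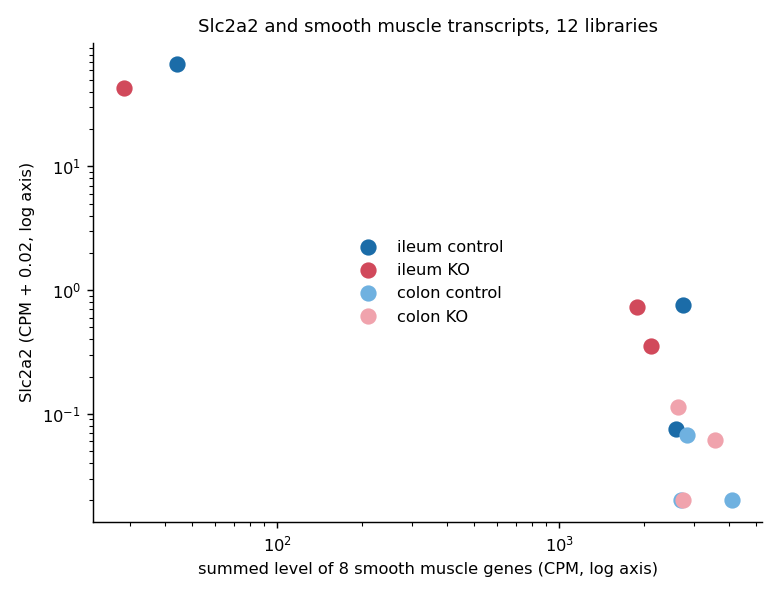
Slc2a2 (CPM plus 0.02, log axis) against the summed CPM of 8 smooth muscle genes (log axis) in each of the 12 libraries, coloured by tissue and genotype. The 2 ileal libraries at 28.6 and 44.1 CPM of smooth muscle transcripts are those with 43.3 and 66.5 CPM of Slc2a2, and the other 10 libraries, at 1890 CPM or more, have at most 0.73 CPM.

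The other sugar genes did not separate these libraries in the same way. Sis was at 4756 and 4755 CPM in them, within the 2544 to 5026 CPM of the other 4 ileal libraries, and Treh, Slc5a1, Slc2a5, Khk and G6pc also overlapped. Mgam was above the others, at 2720 and 2448 CPM against 1667 to 2206 CPM, and so was Lct, as given above. In all, 2 of the 8 tested members were above and none below the other 4 ileal libraries, beside 23.2% of all tested genes above and 27.2% below.

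Markers of several cell types moved with the same 2 libraries, beside 23.2% of all tested genes above and 27.2% below the other 4 ileal libraries. The 2 libraries were set apart by the 8 smooth muscle genes, so that all 8 were below follows from that choice. Acta2 was at 7.14 and 4.89 CPM against 398 to 537 CPM. All 5 genes of crypt and cycling cells were above the other ileal libraries and summed to 856 to 1225 CPM against 280 to 400 CPM. Olfm4 was at 751 and 523 CPM against 105 to 181 CPM. Of the 8 epithelial markers 1 was above and 2 below, and of the 5 colonic epithelial markers 2 were below. Of the goblet cell genes 3 of 5 were above and 1 below (12825 to 12869 CPM against 10208 to 10898 CPM in sum). The 1 below was Spink4, at 590 and 474 CPM against 897 to 1124 CPM. Of the plasma cell genes 3 of 4 were below (383 to 386 CPM against 671 to 1115 CPM). The 6 T and B cell genes divided, with 3 above and 3 below, and Cr2, Pax5 and Ms4a1, genes of B cells chosen after their values were seen, were among the 9 genes with ratios of at least 10. The 7 enterocyte markers summed to 25865 to 30927 CPM in these libraries and 24312 to 31376 CPM in the other 4, with 1 above and 1 below. Apoa1 was above, at 7526 and 8787 CPM against 3896 to 6143 CPM. Slc10a2 was below, at 1883 and 1884 CPM against 1955 to 3282 CPM. Fabp6, a gene of the ileum, overlapped, at 4447 and 5514 CPM against 3362 to 7110 CPM. The part of these differences in the level of Slc2a2 was not tested.

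For each tested member, the 2 genes with the most similar profile were sought over the 12 libraries, as the smallest root mean square difference of centred log2 CPM values. Slc5a1 had the closest neighbours, Cndp2 at 0.10 and Slc52a3 at 0.14. Khk followed with Gpd1 (0.18) and Sfxn1 (0.19), Mgam with 4930442L01Rik (0.22) and Cyp4v3 (0.22), Slc2a5 with Tgfbi (0.24) and Slc22a4 (0.29), and Sis with Naaladl1 (0.27) and Pepd (0.34). Treh lay at 0.41 from Apoc3 and 0.42 from Slc7a15, and G6pc at 0.68 from Gimd1 and 0.70 from Slc6a20b. Slc2a2 had no near neighbour: the closest were Serpina1c at 1.59 and Pnliprp2 at 1.62. Pnliprp2 was at 136 and 114 CPM in the 2 ileal libraries with few smooth muscle transcripts and at 13.6 to 26.8 CPM in the other 4. The log2 values were taken with 2 counts added, which limits the fall of genes with few colonic counts. 4930442L01Rik was at 1.33 to 2.03 CPM in ileum and 0 in every colonic library, where Mgam had 145 to 169 CPM. Serpina1c was also at 0 there, and Apoc3 and Gimd1 had at most 0.19 and 0.14 CPM. The distances of these genes are set in part by that addition.

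The loss of epithelial Slc39a8 was asked about in each tissue by comparing KO with control libraries. edgeR called 0 of the 8 tested members in ileum and 0 in colon, and 0 of all 16558 genes (0%) in either. The genes not called include Slc39a8, the deleted gene, although its genotypes did not overlap in either tissue. The absence of a call therefore does not show that a member was unchanged. At an unadjusted p under 0.05 edgeR counted 252 genes in ileum and 385 in colon, none of them a member. The smallest unadjusted p among the members was 0.24 in ileum and 0.15 in colon. DESeq2 called 2 genes in ileum and 0 in colon, and limma-voom 1 and 0, none of them a member.

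None of the ileal disaccharidases passed the test for genotype. Sis averaged 4109 ± 1362 CPM in control ileum and 4048 ± 613 CPM in KO ileum (log2 fold change −0.02, 95% interval −0.66 to 0.62), and Mgam at 2198 ± 527 and 2144 ± 265 CPM (−0.04, −0.43 to 0.36). Treh was at 96.2 ± 3.70 and 97.3 ± 39.5 CPM (0.01, −0.59 to 0.62). The genotypes overlapped for each of them, while 2.13% of all tested genes lay higher and 1.57% lower in all KO than in all control ileal libraries, and the intervals leave room for changes of up to about 0.6 on the log2 scale in either direction for Sis and Treh.

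Among the transporters, ileal Slc5a1 averaged 1619 ± 239 CPM in control mice and 1678 ± 91.0 CPM in KO mice (log2 fold change 0.05, 95% interval −0.29 to 0.39). Slc2a5 was at 43.4 ± 11.5 and 56.5 ± 14.5 CPM (0.38, −0.29 to 1.05), and Khk at 108 ± 12.2 and 123 ± 23.4 CPM (0.19, −0.18 to 0.55). G6pc was at 3.35 ± 3.01 and 4.31 ± 3.57 CPM (0.36, −1.56 to 2.29). All of these overlapped between genotypes.

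Slc2a2 gave no usable estimate of the genotype effect in ileum. The means were 22.4 ± 38.2 CPM in control and 14.8 ± 24.7 CPM in KO mice, and the log2 fold change was −0.62 with a 95% interval of −4.38 to 3.14. It became 5.29 without ileal control replicate 3 and −5.41 without ileal KO replicate 1, and 0.45 (adjusted p = 0.97) without both. Its adjusted p over the alternatives ran from 0.58 to 1. Without ileal KO replicate 2, the values of the other members ranged from 0.03 for Mgam to 0.57 for G6pc, and none was past the threshold. Without both ileal libraries with few smooth muscle transcripts, Treh stood at −0.38 and G6pc at −0.74, neither past the threshold.

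In colon, Sis averaged 158 ± 31.1 CPM in control mice and 181 ± 50.5 CPM in KO mice (log2 fold change 0.20, 95% interval −0.44 to 0.84), and Mgam at 152 ± 8.85 and 158 ± 10.6 CPM (0.05, −0.35 to 0.45). Slc5a1 was the member whose colonic genotypes did not overlap, with 143, 165 and 166 CPM in control and 214, 173 and 171 CPM in KO libraries. Its log2 fold change was 0.24 (95% interval −0.10 to 0.58), and the exact two-sided permutation p was 0.1, the smallest that 3 against 3 libraries can give. Groups did not overlap in this direction for 6.98% of all tested genes, and in the other for 5.85%. Slc2a5 stood at 0.24 (−0.47 to 0.95), Khk at 0.13 (−0.24 to 0.51) and Treh, with 5 to 14 counts a library, at −0.14 (−1.20 to 0.91). G6pc and Slc2a2, with 0 to 4 counts in each colonic library, could not be compared at this depth.

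**Figure D5:**
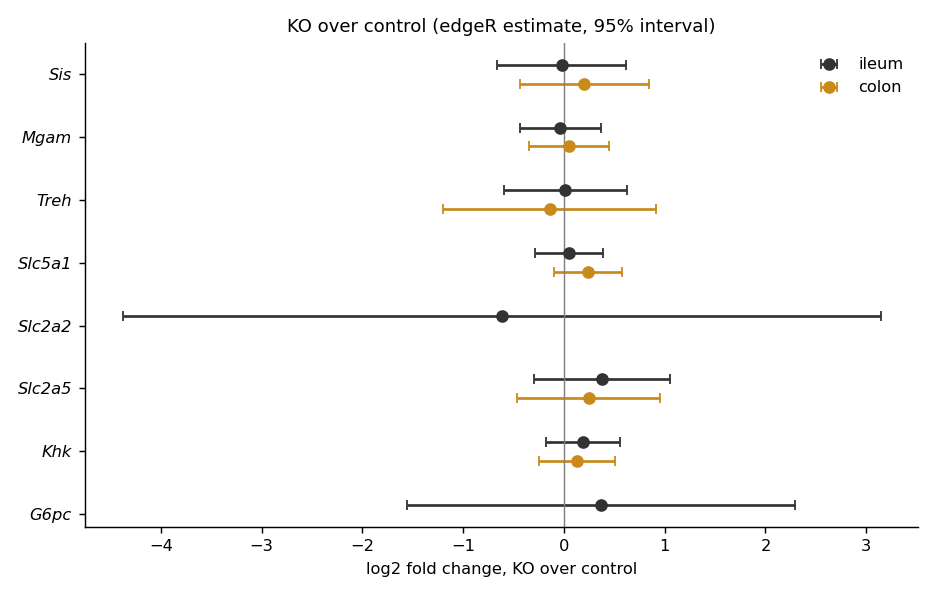
Log2 fold change of KO over control (edgeR estimate with its 95% interval) in ileum for 8 genes and in colon for the 6 with more than 4 counts in some colonic library, 3 libraries a group. Every interval includes 0, and the widest is that of Slc2a2 in ileum, from −4.38 to 3.14.

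With both tissues in 1 model and tissue as an added term, edgeR called 0 of the 8 members and 0 of all genes. Slc39a8 was thus not called by edgeR here either, while the study, with both tissues combined and DESeq2, did call it. In this model 641 genes had an unadjusted p under 0.05, and the smallest unadjusted p of a member was 0.16. DESeq2 called 4 genes and limma-voom 1, none of them a member. Whether Slc39a8 was among these is not reported here. In a test of whether the genotype effect differed between the tissues, edgeR also called 0 members and 0 genes, with 169 genes at an unadjusted p under 0.05, and the smallest unadjusted edgeR p of a member was 0.25. DESeq2 called 1 gene there and limma-voom 0, none of them a member. None of the other sugar genes on the 5 lists was called in any genotype comparison.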

How the data were processed

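RNA-seq of ileal and colonic mucosa was used in 12 libraries, grouped by tissue and genotype from their labels. The authors aligned reads with STAR to mm10 and deposited 1 table of expected counts, that is, estimated and unnormalized reads of each gene. The study names FeatureCounts as its counter, which by default gives whole numbers, while 93.7% of the deposited values were whole. What produced the fractional values is not stated, nor is how reads were shared between similar genes, and 92 spike-in lines, all at 0, were left out. Of 53715 genes, 51464 were matched to GENCODE M21 by their full identifier. The rest were looked up in a separate list of gene names by identifier without version, and 53620 genes had a symbol in all.

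Expected counts were rounded and tested with edgeR 4.0.16 in R 4.3.3 (filterByExpr, TMM factors, glmQLFit and glmQLFTest, Benjamini-Hochberg adjustment over 16558 genes, threshold 0.1), in a model of the 4 groups, or with tissue as an added term for the genotype effect over both tissues. SEs are the log2 fold change over the root of F. Adjusted p-values are edgeR's unless DESeq2 1.42.0 or limma-voom (limma 3.58.1) is named. Permutation tests used log2 of CPM plus 0.5. The steps were tested on simulated data. The depth was 16749138 to 27903083 expected counts a library, and intervals from counts cover counting error only.

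The members, gene lists and tests were chosen with earlier results of these data known. The text names all 9 members, Slc39a8, the 3 largest called rises and falls of each sugar gene list between tissues in control mice, 2 profile neighbours a member, and marker genes on which a result turns. Some genes the rule gives are not reported here. Others are marked as chosen after their values were seen. Lists were other hexose transporters, entry enzymes, gluconeogenesis and glucose release, other glycosidases, sugar sensing and transcription factors, and markers of epithelium, small intestinal enterocytes, colonic epithelium, smooth muscle, goblet, crypt and cycling, plasma, and T and B cells. Alternatives were other scalings, filters, tools and thresholds, the replicate number as a block, the libraries of a comparison alone, and libraries left out. RefSeq promoters of GRCm38.p6 were searched with Python 3.11.15, and figures were drawn with matplotlib 3.10.9.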

Additional observations from a re-analysis of the deposited data

How the results depend on the processing

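Of the tested members, Sis, Mgam, Treh, Slc5a1, Slc2a5, Khk and G6pc kept their lower colonic call in both genotypes under every alternative that tested them. G6pc could only differ in this direction, as given above. Slc2a2 lost it with limma-voom (log2 fold change −5.93, adjusted p = 0.366 in control and −4.99, adjusted p = 0.435 in KO mice), in KO mice at a threshold of 0.05, and without single libraries, as given above. DESeq2 gave it no adjusted p, and in the comparisons between tissues it did not pass a filter of 1 CPM in 3 libraries or the filter applied to the libraries of a comparison alone. The cause was not tested. Leaving out 1 library at a time, 7 to 9 members were called between tissues, and 4655 to 6446 genes in all in control and 4429 to 7166 in KO mice.

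Scaling on epithelial markers raised the genes called between tissues to 12860 in control and 13413 in KO mice, from 5940 and 6149, with 12034 higher and 826 lower in control and 12678 and 735 in KO mice, against 2689 and 3251, and 2837 and 3312, with TMM. Upper-quartile factors gave 3373 higher and 2741 lower in control and 3678 and 2634 in KO mice, with medians of all genes at 0.12 and 0.14, and library size alone 4156 and 2102, and 4637 and 1908, with medians at 0.24 and 0.29. All tested members stayed lower in colon under each, though Slc2a2 and G6pc could only differ in this direction. Per kilobase of the longest transcript, control levels were 26.5 for Sis in colon, 339 and 23.5 for Mgam in ileum and colon and 67.9 for Khk in ileum, and with library size alone Treh in control ileum was at 42.3 CPM per kilobase.

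Between genotypes no member was called under any alternative. Over all genes, DESeq2 called 2 in ileum, 4 over both tissues and 1 for the difference between tissues, limma-voom 1 in ileum and 1 over both, and the colonic libraries alone gave 1. Without both ileal libraries with few smooth muscle transcripts, 3 were called in ileum and 5 over both tissues, and leaving out 1 library gave 0 to 1 in each. Several uncalled ileal log2 fold changes changed sign. These were Treh at −0.020 with upper-quartile factors, Sis at 0.032 and Mgam at 0.002 with library size alone, Treh at −0.11 and Slc5a1 at −0.079 with epithelial scaling, and Sis at 0.035 and Treh at −0.061 with limma-voom. Without both ileal libraries with few smooth muscle transcripts, Mgam was at 0.030, Treh at −0.38, Slc5a1 at −0.021, Slc2a2 at 0.45 and G6pc at −0.74. Leaving out 1 library, ileal values ran from −0.27 to 0.15 for Sis, −0.20 to 0.15 for Mgam, −0.36 to 0.23 for Treh, −0.035 to 0.18 for Slc5a1, −5.41 to 5.29 for Slc2a2 and −0.53 to 1.35 for G6pc, and colonic ones from −0.023 to 0.11 for Mgam, −0.44 to 0.27 for Treh and −0.079 to 0.58 for Slc2a5.

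The labels number replicates 1 to 3 in each group without saying what they share. Deviations of same-numbered libraries correlated at −0.69 to 0.40 over all pairs of groups, with both ends between ileal control and ileal KO libraries. Only ileum and colon of the same genotype could share mice. There, same-numbered libraries correlated at −0.080 to 0.16 in control and 0.051 to 0.25 in KO mice. Libraries with unlike numbers correlated at −0.18 to 0.16 and −0.21 to 0.054. These ranges cannot tell whether samples share a mouse, and the numbers were not taken to pair the samples. With the replicate number as a block, ileal Treh was at −0.057 and Slc2a2 at 1.14 between genotypes, neither called, the adjusted p of Slc2a2 between tissues was 0.060 in control and 0.044 in KO mice, and no call of a member changed.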

Other observations

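Genes of glucose production stood apart in the 2 ileal libraries with few smooth muscle transcripts, control replicate 3 and KO replicate 1. Of the 7 tested genes of gluconeogenesis and glucose release beside G6pc, 6 were above all 4 other ileal libraries and none was below, beside 23.2% and 27.2% of all tested genes. Pck1, the cytosolic phosphoenolpyruvate carboxykinase, was at 146 and 288 CPM against 11.9 to 53.8 CPM, Fbp1 at 13.8 and 16.4 CPM against 3.33 to 5.45 CPM, and Slc37a4 at 66.1 and 62.0 CPM against 33.3 to 39.3 CPM. G6pc itself overlapped, at 2.38 and 8.35 CPM against 0.94 to 6.72 CPM. Of the 15 other hexose transporters tested, 4 were above and 3 below. Slc5a11 was at 32.2 and 34.6 CPM against 11.4 to 15.4 CPM, and Slc2a4, which encodes the transporter GLUT4 of muscle and fat, at 0.59 and 0.72 CPM against 11.5 to 18.4 CPM. Of the 17 entry enzymes, 3 were above and 7 below, with Sord at 307 and 338 CPM against 173 to 187 CPM and the hexokinase gene Hk2 at 39.6 and 35.9 CPM against 82.1 to 365 CPM. Of the other glycosidases 2 of 8 were above and 2 below, and of the sugar sensing genes and transcription factors 4 of 19 were above and 3 below. These genes were chosen after their values were seen, and the libraries were set apart by their smooth muscle transcripts. The part of cell composition in these values was not tested.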
